A study of Mus musculus with 4 samples.

Results

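The liver X receptors and their cholesterol export programme were followed in RAW 264.7 cells, a macrophage-like line from BALB/c mice, exposed to the yoghurt bacterium Lactobacillus bulgaricus. The group held 10 genes chosen by name, and all 10 had at least 1 probe, of 20971 genes that could be named on the array. They were read by 13 probes on 22 spots. There were 4 two-colour arrays: untreated cells, and cells after 1, 4 and 6 h with L. bulgaricus at a multiplicity of infection of 10. All were grown in RPMI-1640 with heat-inactivated serum and no antibiotic. Each array carried RNA pooled in equal amounts from 3 cultures, labelled with Cy5, against a Cy3 common reference described as a pool of RNA from every group. No dye swap was made.

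Each group thus had a single array, so nothing here was tested, and precision is limited by how few arrays there are. The rule of size asked for a difference of at least 1, or 2-fold, between the log2 ratio (Cy5 over Cy3) of a treated array and that of the untreated one. Among probes printed on 10 spots, the SD over single spots of a log2 difference between arrays was 0.13 at 1, 4 and 6 h. This spot error covers neither the cultures nor the labelling, and below a difference is set against 2 such SDs, 0.27, 0.26 and 0.26. A probe counted as measured on an array when it was well above background in both channels. The arrays shared 1 slide in the order of the time course, and an effect of place on the slide cannot be told apart from one of time. Macrophage markers fitted the label: 9 of 10 had a probe, and all 9, among them Csf1r, Adgre1 and Lyz2, were well above background in Cy5 on every array. Some markers of other cell types were well above background too, and are given below with Apoe. In RNA from whole cultures, a change in RNA per cell and a change in the share of cells carrying it cannot be told apart.

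Liver X receptors are nuclear receptors that bind oxidised cholesterol and sit on DNA with the retinoid X receptor as partner. In macrophages loaded with cholesterol they switch on the transporters that move it out of the cell, the apolipoprotein that carries it, and enzymes that remodel membrane lipids. Toll-like receptor signals are known to oppose part of this programme in macrophages.

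The response was small and did not run in 1 direction. Of the 9 genes measured, 0 passed the rule of size at any of the 3 times. At 1, 4 and 6 h 0.376%, 0.455% and 0.921% of all measured genes did. Apoe, the apolipoprotein E gene, stood highest of them at 6 h (log2 difference 0.89). Abcg1, a cholesterol exporter, stood highest at 4 h (0.66). Lpl, the lipoprotein lipase gene, was lowest at 6 h (-0.89) on 1 of its probes, while its other probe gave a smaller value. The receptors Nr1h3 and Nr1h2 stayed within 2 spot SDs of untreated cells at all 3 times. Abca1, the other main cholesterol exporter, was not measured.

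The Abca1 and Apoe promoters show the reference sequence upstream of the exporter that was too dim to follow and of the gene that stood highest. The liver X receptor element, called DR4, is a direct repeat spelled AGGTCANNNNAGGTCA, and it was searched on both strands of RefSeq promoter windows of 300 bases, 250 before the start site and 50 after it, on GRCm38.p6. Of the 10 genes, 8 had 11 such windows. Allowing 3 mismatches in the 12 fixed letters, 1 of the 11 windows held a match, that of Abca1, against 21.9% of 32851 windows of all genes. With at most 2 mismatches 0 of the 11 did, against 3.02% of all windows. The Abca1 match lies on the strand opposite to the gene's, starts at base -67 from the start site, and reads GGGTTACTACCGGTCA in the orientation of the motif. Capitals mark it below, and the Apoe window, the first of 3 listed for that gene, has none. Both are written 5′ to 3′ on the gene's strand, which is the minus strand.

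Abca1, chr4:53159846-53160145: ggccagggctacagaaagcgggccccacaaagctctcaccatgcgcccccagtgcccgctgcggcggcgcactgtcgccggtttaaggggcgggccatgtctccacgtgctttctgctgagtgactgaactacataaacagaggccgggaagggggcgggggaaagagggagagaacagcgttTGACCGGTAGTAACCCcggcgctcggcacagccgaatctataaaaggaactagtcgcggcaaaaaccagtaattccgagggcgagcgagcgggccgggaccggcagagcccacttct
Apoe, chr7:19699139-19699438: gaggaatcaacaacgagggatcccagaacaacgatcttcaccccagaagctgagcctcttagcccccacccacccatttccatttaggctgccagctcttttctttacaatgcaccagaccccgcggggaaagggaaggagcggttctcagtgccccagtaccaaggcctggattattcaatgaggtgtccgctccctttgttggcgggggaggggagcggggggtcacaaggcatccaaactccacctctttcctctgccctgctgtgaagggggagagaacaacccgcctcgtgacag

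A match says only that the letters are present in the reference, and the absence of a match says only that they are not in this window.

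The receptors stand first in the pathway. Nr1h3 encodes LXR alpha, the form rich in macrophages and liver, and Nr1h2 encodes LXR beta, which most cells carry. Nr1h3 was read by 2 probes, and neither left the band of 2 spot SDs. On probe A_55_P2128597 the processed Cy5 signal was 483 in untreated cells, 585 at 1 h, 647 at 4 h and 595 at 6 h, beside Cy3 signals of 520, 635, 594 and 596. On probe A_66_P120249 it was 571, 553, 656 and 584, beside 645, 626, 651 and 603 in Cy3. The log2 differences of the gene were 0.10, 0.16 and 0.05 at 1, 4 and 6 h. Its ratio spanned 0.16 over the 4 arrays, and 80.6% of 10110 genes spanned as much or more. No neighbours in its order of arrays were 2 spot SDs apart.

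Nr1h2 had a processed Cy5 signal of 4438 in untreated cells, 5977 at 1 h, 5451 at 4 h and 5741 at 6 h. The untreated array was the dimmest in Cy5, but its Cy3 signals of 5737, 6614, 6811 and 7130 were also lowest there. The log2 differences of the ratio were 0.21, 0.08 and -0.02, while Cy5 alone, normalized between arrays, stood 0.49, 0.48 and 0.38 above untreated cells and the reference 0.28, 0.39 and 0.40. The ratio spanned 0.23 over the arrays, against a median of 0.26 over all genes.

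The partners of the receptors were as even. In a list of 10 partners and cofactors (among them retinoid X receptors, corepressors and coactivators) all 10 were measured and 0 passed the rule at any time. Their medians were 0.07, 0.04 and 0.06, where those of all genes were 0.06, 0.00 and -0.01. Rxra, the obligate partner, stood at 0.07, -0.00 and 0.24, and Med1, a Mediator subunit that nuclear receptors recruit, at 0.09, -0.12 and -0.27. Med1 at 6 h was the 1 value of the list beyond 2 spot SDs.

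Cholesterol leaves macrophages through Abca1, which loads lipid-poor apolipoproteins, and Abcg1, which feeds formed lipoprotein particles. The single Abca1 probe lay at the edge of detection. Processed Cy5 was 12.3 in untreated cells, 6.84 at 1 h, 21.3 at 4 h and 8.62 at 6 h, well above background on the 4 h array alone, and its Cy3 signal of 23, 28, 20.1 and 14.2 was not well above background on any array. Normalized Cy5 at 4 h lay above the untreated array by 0.08 on the log2 scale, less than the spot SD of 0.13 for a difference in the ratio, so no fold is given. This probe cannot show whether Abca1 moved.

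Abcg1 was well above background throughout. Its processed Cy5 signal was 1030 in untreated cells, 864 at 1 h, 1506 at 4 h and 1239 at 6 h, while the reference went from 1525 and 1611 to 1344 and 1291. The untreated and 1 h arrays were thus the low pair and the 4 h and 6 h arrays the high pair. As log2 ratios these were -0.46, -0.57, 0.20 and -0.01. The differences from untreated cells were -0.11 at 1 h, 0.66 at 4 h and 0.45 at 6 h, that is 1.58-fold higher at 4 h and 1.36-fold at 6 h, short of the rule of size. At 4 h only 1.89% of 10339 genes stood as far from untreated cells, and 98 stood higher. In Cy5 alone the differences were -0.16, 0.57 and 0.28, with the reference at -0.05, -0.09 and -0.16. From 1 h to 4 h the ratio differed by 0.77, rank 16 from the top of 10537 genes. The 6 h array lay 0.21 below the 4 h array, just beyond the 2 spot SDs of 0.20 that hold between these arrays.

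**Figure D1:**
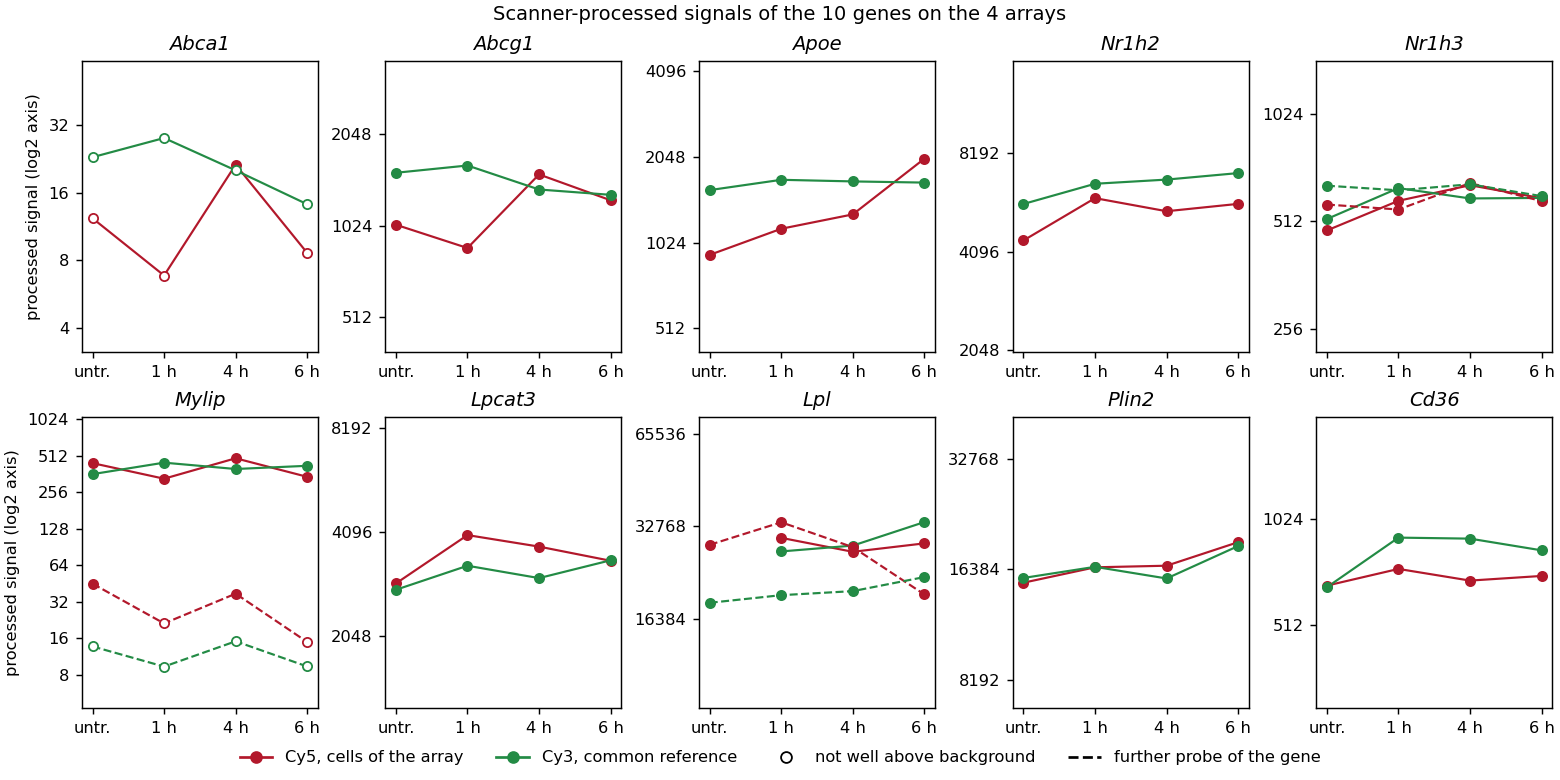
Processed signal (log2 axis) of each probe of the 10 genes by array, with Cy5 (cells) in red and Cy3 (common reference) in green, open points where a spot was not well above background and dashed lines for a further probe of a gene; the untreated spot left out for 1 Lpl probe is not drawn. Cy5 of Apoe went from 928 to 2019 with a level reference, Abcg1 was highest at 4 h (1506), and Abca1 stayed at or below 21.3.

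Apoe encodes the secreted apolipoprotein that takes up exported cholesterol. Its probe was printed on 10 spots, of which 8 to 10 per array were kept, so it was the best measured of the genes. Processed Cy5 over the kept spots ran from 819 to 1022 (median 928) in untreated cells, from 1106 to 1193 (median 1140) at 1 h, from 1231 to 1361 (median 1274) at 4 h and from 1773 to 2645 (median 1935) at 6 h. These ranges did not overlap between arrays, but processed Cy5 is not normalized between arrays. In the log2 ratio the 1 h spots (-0.51 to -0.28) and the 4 h spots (-0.45 to -0.22) overlapped. How many other probes on 10 spots separate in this way was not counted. The reference medians were 1545, 1711, 1669 and 1636, and its ranges did overlap. The log2 ratio averaged -0.66 ± 0.08 (SD, 9 spots) in untreated cells, -0.42 ± 0.07 (8 spots) at 1 h, -0.35 ± 0.07 (9 spots) at 4 h and 0.23 ± 0.11 (10 spots) at 6 h. Spots of 1 array share its RNA, so these SDs describe the printing and reading of 1 array only.

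The differences from untreated cells were 0.24, 0.31 and 0.89, or 1.18-, 1.24- and 1.85-fold, with that at 1 h within 2 spot SDs. That band is for single spots and is wide for Apoe, a mean over its kept spots. Its spot differences at 1 h ran from 0.14 to 0.35 (SD 0.07), a spread that covers neither cultures nor labelling. Every Apoe spot kept on both arrays was higher than in untreated cells, 8 of 8 at the earliest time and 9 of 9 at either later time. Spots of an array share its RNA, so these counts are not repeats of the treatment. For other probes printed on several spots, such counts were not made. Of all genes, 70.6%, 50.9% and 47.9% lay above 0 in the ratio at 1, 4 and 6 h. At 6 h single Apoe spots ran from 0.74 to 1.06. In Cy5 alone the differences were 0.30, 0.49 and 0.99 and in the reference 0.06, 0.19 and 0.10, so the 6 h value lay mostly in the cells' channel. Among 10311 genes at 6 h, 68 stood higher than Apoe and 1.52% stood as far from untreated cells in either direction. The value fell just short of the rule, and in the scanner software's processed signals it was 1.03, past it, where 4.11% of all genes passed too. Most of the difference came late: 0.07 from 1 h to 4 h and 0.58 from 4 h to 6 h.

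Apoe is also made outside macrophages, and markers of other cell types were therefore read on the same arrays. Fibroblast and smooth muscle markers had a summed processed Cy5 signal of 1031, 1723, 2825 and 2357 from the untreated to the 6 h array, with 5 of 6 well above background and Col1a1 not on any. The 4 of them measured in both channels had median differences of 0.26, 0.53 and 0.28. Hepatocyte markers summed to 2056, 1872, 2431 and 2063, with 3 of 7 well above background and Alb, Ahsg, Fgb and Ttr not on any array. Enterocyte markers summed to 2948, 2803, 2589 and 1731, with 6 or 7 of 7 well above background, all 7 of them in untreated cells. In the Cy3 reference they summed to 9922, 10224, 9725 and 8911, above Cy5 on every array, with all 7 well above background. Hepatocyte markers summed lower in Cy3 than in Cy5 on every array (1079, 1217, 1275 and 1139). Why the channels differed was not tested. Adipocyte markers summed to 218, 124, 174 and 335, with 2 to 5 of 7 well above background and Lep and Plin1 not on any. The fibroblast and smooth muscle sum was highest at 4 h and Apoe at 6 h, but the 4 measured markers differed among themselves. Dcn stood at 0.77 at 4 h and 0.93 at 6 h. Acta2 (0.71 and 0.60), Col1a2 (0.36 and -0.04) and Col3a1 (0.32 and -0.09) were lower at 6 h than at 4 h. The part of these cell types in the value of Apoe was not tested.

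**Figure D2:**
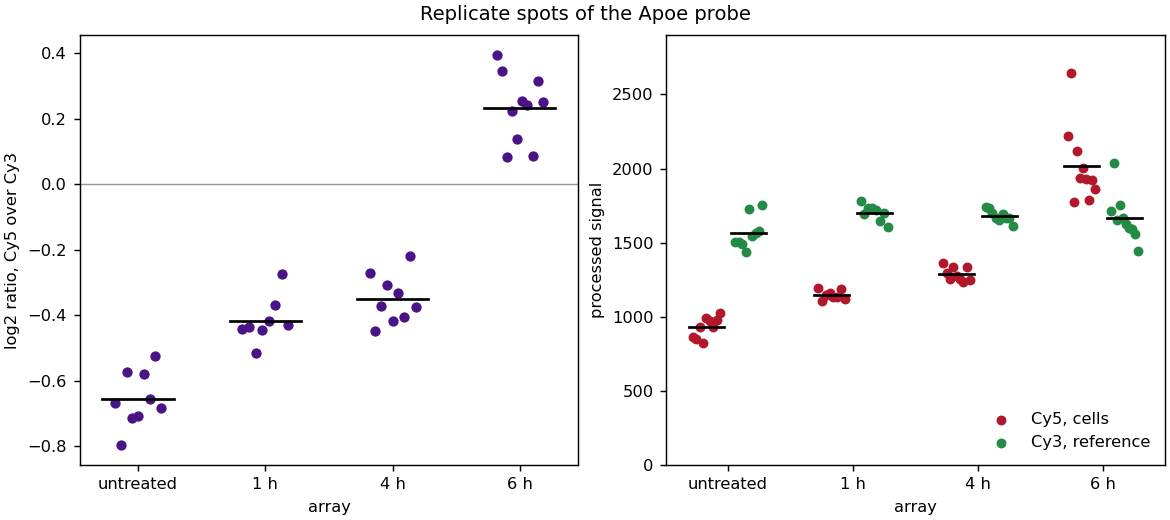
Each kept spot of the Apoe probe on the 4 arrays, as log2 ratio of Cy5 over Cy3 (left) and as processed signal (right; Cy5 of the cells in red, Cy3 reference in green), with black bars at the mean. The 6 h spots (0.08 to 0.40) lie above every spot of the other arrays, and the reference stays near its untreated level.

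By all 3 differences at once, the 5 genes of 10115 nearest to Apoe by Euclidean distance were Cd274 (distance 0.08), the checkpoint ligand PD-L1, Rgs16 (0.08), a regulator of G protein signalling, 5830454E08Rik (0.09), Atg9a (0.09), an autophagy membrane protein, and Pyy (0.11), a gut peptide hormone. Cd274 stood at 0.30, 0.27 and 0.92. Such likeness rests on 4 arrays that share the untreated one, and is a description only.

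Mylip and Lpcat3 are receptor targets of other kinds. Mylip, also known as Idol, encodes a ubiquitin ligase. Its bright probe had processed Cy5 signals of 445 in untreated cells, 331 at 1 h, 488 at 4 h and 343 at 6 h, and Cy3 signals of 361, 449, 398 and 423. Processed Cy5 was higher on the untreated and 4 h arrays than on the other two. The differences in the ratio were -0.41, 0.02 and -0.25, and that at 1 h was the 1 value beyond 2 spot SDs among the 9 genes then. In normalized Cy5 alone they were -0.34, 0.17 and 0.03, with the reference at 0.08, 0.15 and 0.27. On that scale the 6 h value lay in the reference, but processed Cy5 was also lower at 6 h (343) than in untreated cells (445). The 6 h difference in processed signals was -0.60. At 1 h 4.14% of genes stood as far away. The 1 h value was -0.75 in processed signals and -0.27 with the dim probe included. With arrays centred on their median in place of loess it was 0.22, where the median of all genes was 0.86. From 1 h to 4 h the bright probe differed by 0.44. The other Mylip probe was well above background in Cy5 on the untreated and 4 h arrays only (45.1 and 37.3, against 21.2 and 14.9), and never in the reference. No fold is given for it.

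Lpcat3 encodes the enzyme that puts polyunsaturated fatty acids into membrane phospholipids. Processed Cy5 was 2903, 4006, 3710 and 3376, and Cy3 2783, 3266, 3008 and 3387. The differences were 0.23, 0.23 and -0.08, each within 2 spot SDs, while Cy5 alone stood at 0.44, 0.41 and 0.21 and the reference at 0.21, 0.18 and 0.29. The sign at 6 h thus differed between the ratio and Cy5 alone.

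Lpl encodes the lipase that frees fatty acids from lipoproteins, and is both a receptor target and a product of macrophages. Its probes disagreed in size. On A_52_P257812 the processed Cy5 signal was 28499, 33733, 28001 and 19648 in the order of time, with Cy3 at 18462, 19546, 20147 and 22382. The 6 h array was the lowest in Cy5 and the highest in Cy3. The log2 ratio was 0.75, 0.82, 0.50 and -0.13, which gave differences of 0.07, -0.25 and -0.89, and 90 of 10311 genes stood lower at 6 h. In Cy5 alone the 6 h difference was -0.67, and the reference moved by 0.21. The other probe, A_51_P259296, had its untreated spot left out as non-uniform. Over the 3 treated arrays its ratio was 0.21, 0.01 and -0.11, and its normalized Cy5 signal was level at 14.15, 14.18 and 14.22 on the log2 scale. With the untreated spot kept, its 6 h difference was -0.23, and this reading of single probes was added after seeing the values. The mean of both probes was -0.56 with outlier spots kept, a planned setting. From 4 h to 6 h the probes gave -0.63 and -0.11. Both lay below 0 at 6 h, but -0.23 is within the 2 spot SDs of 0.26 and uses the spot flagged as non-uniform. The size of the difference rests on 1 spot per array.

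**Figure D3:**
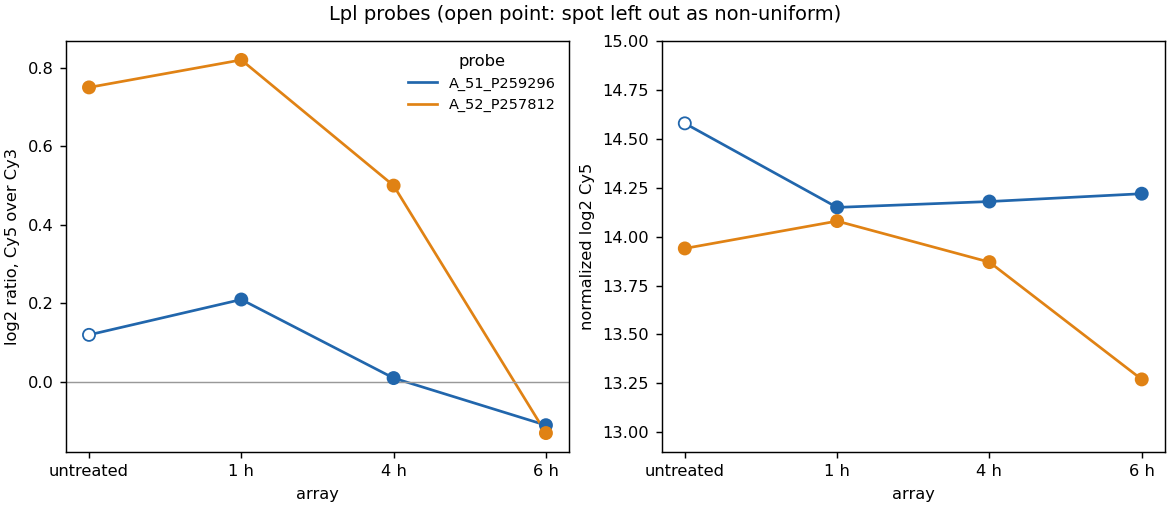
Both Lpl probes on the 4 arrays, as log2 ratio of Cy5 over Cy3 (left) and as normalized log2 Cy5 (right); the open point is the spot left out on the untreated array. The ratio of A_52_P257812 goes from 0.75 to -0.13, and the Cy5 signal of A_51_P259296 is level at 14.15 to 14.22 over the treated arrays.

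Plin2 and Cd36 stand at the lipid storage end. Plin2, the coat protein of lipid droplets, was even, with processed Cy5 of 15056, 16586, 16754 and 19428 beside Cy3 of 15512, 16637, 15462 and 18960. Both channels were brightest at 6 h. Its differences were 0.03, 0.20 and 0.13, all within 2 spot SDs, and 69.4% of genes spanned at least its range of 0.20. Cd36, the scavenger receptor that takes up oxidised lipoprotein and fatty acids, had Cy5 signals of 661, 737, 683 and 704 and Cy3 signals of 654, 904, 898 and 832. Its differences of -0.16, -0.33 and -0.25 came with Cy5 alone at 0.13, 0.20 and 0.18 and the reference at 0.30, 0.52 and 0.43. Cd36 was therefore lower against the reference and not lower in the cells' channel.

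Placed in the order of their log2 ratios, neighbouring arrays lay more than 2 spot SDs apart for Abcg1 (untreated below 6 h, and 6 h below 4 h), Apoe (4 h below 6 h) and Lpl (6 h below 4 h). For the other 6 genes no neighbours did. Lpl stands here by A_52_P257812 alone, the probe measured on all 4 arrays. Its other probe gave -0.11 from 4 h to 6 h, within the 2 spot SDs of 0.20.

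Of the 9 genes, 6 lay above 0 at 1 h, 7 at 4 h and 4 at 6 h, where 70.6%, 50.9% and 47.9% of all genes did. Their medians were 0.07, 0.16 and -0.02, beside 0.06, 0.00 and -0.01 for all genes. Beyond 2 spot SDs lay Mylip at 1 h, Abcg1, Apoe and Cd36 at 4 h, and Abcg1, Apoe and Lpl at 6 h, so 1, 3 and 3 of 9, where 10.3%, 19.2% and 29.3% of all genes lay that far. Between treated arrays, 3 of the 9 (Abcg1, Mylip and Lpl) lay beyond 2 spot SDs from 1 h to 4 h, against 27.4% of all genes, and 5 (Abcg1, Apoe, Mylip, Lpcat3 and Lpl) from 4 h to 6 h, against 31.1%. In Cy5 alone 6, 8 and 8 of the 9 lay above 0, against 61.7%, 56.7% and 54.5% of all genes, and 0 passed the rule at any time, against 1.05%, 1.62% and 3.65%. The reference channel of the 9 genes moved by -0.16 to 0.52, while over all genes its differences had an SD of 0.29, 0.32 and 0.40.

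**Figure D4:**
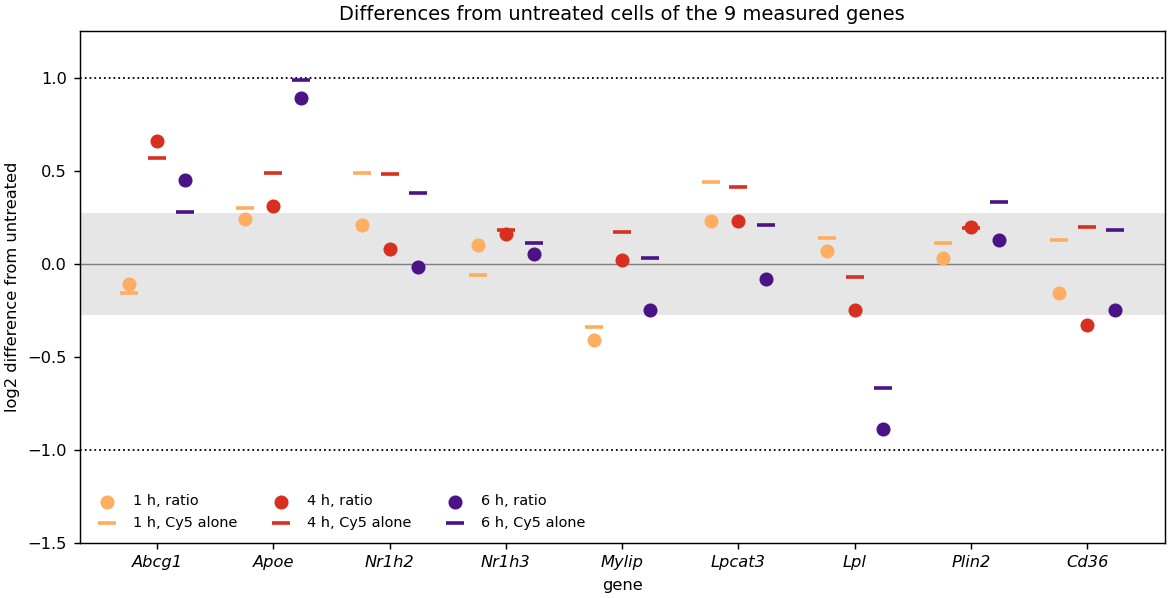
Difference from the untreated array of the 9 measured genes at 1, 4 and 6 h (points, log2 ratio; bars, normalized Cy5 alone), with the band of 2 spot SDs in grey and dotted lines at the rule of size of 1. Apoe at 6 h (0.89) and Lpl at 6 h (-0.89) come nearest to the lines, and Cd36 lies below 0 in the ratio and above 0 in Cy5.

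**Figure D5:**
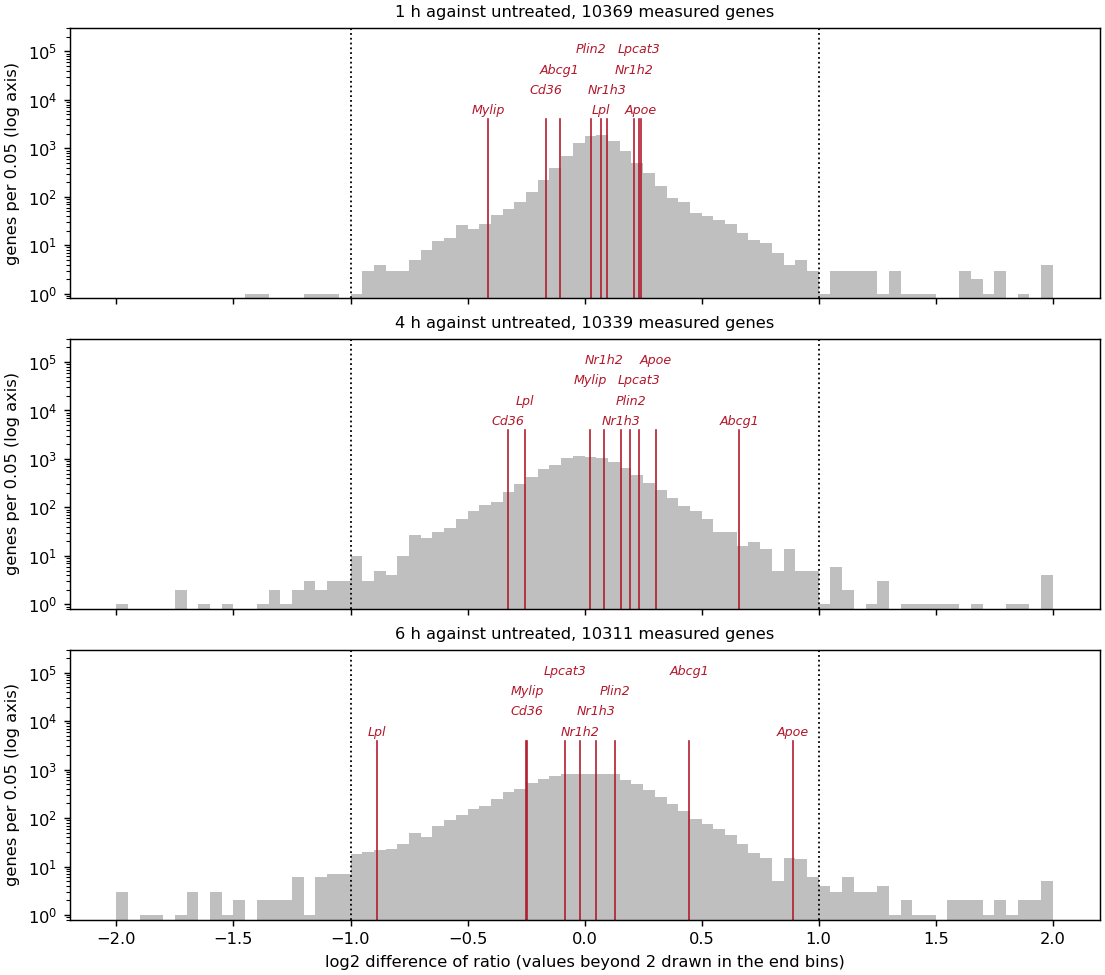
Number of genes (log axis) by log2 difference of the ratio from the untreated array at 1, 4 and 6 h, with the 9 genes marked in red and dotted lines at 1 and -1. Most marks lie in the body of the distribution, and Mylip at 1 h, Abcg1 at 4 h, and Apoe and Lpl at 6 h lie in its tails.

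The other targets of the receptors gave mixed values as well. Of 15 further target genes 13 were measured, 0 passed the rule at any time, and their medians were 0.15, 0.03 and -0.03. Abcg2, a transporter of the same family as Abcg1, stood at 0.34, 0.77 and 0.29 and Tgm2, a transglutaminase used in the uptake of dead cells, at 0.29, 0.61 and 0.62. Scd2, a fatty acid desaturase, stood at 0.14, -0.25 and -0.79 and Apoc2, the cofactor of lipoprotein lipase, at 0.20, -0.27 and -0.62. Beyond 2 spot SDs lay 2 of the 13 at 1 h, 3 at 4 h and 7 at 6 h, where 10.3%, 19.2% and 29.3% of all genes did.

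Of 15 genes that take up, store and move cholesterol, 12 were measured at 1 h and 13 at 4 h and at 6 h, with medians of 0.06, -0.06 and -0.16. At 1 h and 4 h 0 passed the rule. Npc1, which exports cholesterol from lysosomes, stood at 0.23, 0.50 and 0.21 and Stard3, which moves it between organelles, at 0.05, -0.10 and -0.35. Nceh1, a cholesterol ester hydrolase, stood at 0.53, 0.66 and 0.62, but its reference moved by -0.99, -0.91 and 1.11 and its Cy5 signal by -0.47, -0.25 and 1.73.

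The peroxisome proliferator-activated receptors (PPARs) are fatty acid sensors that also drive Plin2 and Cd36. In a list of PPAR and fatty acid genes, 15 of 16 were measured and 0 passed the rule at any time. Fabp4, a fatty acid carrier of macrophages and fat cells, stood at -0.18, 0.26 and 0.92, with Cy5 alone at 1.01 and the reference at 0.09 at 6 h. Hilpda, a lipid droplet protein, stood at 0.79, 0.26 and 0.10, Plin3, a further droplet coat protein, at 0.15, 0.48 and 0.49, and Lpin1, a phosphatidate phosphatase, at -0.03, -0.56 and -0.43.

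SREBP-2 drives cholesterol synthesis and uptake when sterols are short, the opposite condition to that sensed by the liver X receptors. Of its 12 listed targets 11 were measured, and 0 passed the rule at 1 h. All 11 lay below 0 at 4 h and at 6 h, where 50.9% and 47.9% of all genes lay above 0. Their medians were -0.24 and -0.27, and their highest values -0.03 and -0.00. Of the 11, 5 lay beyond 2 spot SDs at 4 h and 6 at 6 h, against 19.2% and 29.3% of all genes. In Cy5 alone the medians were -0.14 and -0.15. Cyp51, a sterol demethylase, was lower past the rule at both times (-1.09 and -1.32), but its reference moved by 0.89 and 1.07, and Cy5 alone stood at -0.21 and -0.26. Sqle, the squalene epoxidase, stood at -0.19 at 4 h and -0.62 at 6 h, with a reference at 0.03 and 0.05. Insig1, the sterol-regulated retention factor, stood at -0.58 at 4 h and -0.38 at 6 h. Its reference moved by 0.14 and 0.23, and Cy5 alone stood at -0.44 and -0.15.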

How the data were processed

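RNA of 4 groups was measured on 4 two-colour Agilent mouse arrays, and the submitters' processing notes name Agilent Feature Extraction 10.5.1.1. The deposited files give intensity values per spot (medians of spot and background), the software's processed signals, from which background and dye bias had already been taken out, and their log10 ratio; the deposited series table holds the same log10 ratio. Further steps by the authors are not given in the sources used here.

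In R 4.3.3, limma 3.58.1 corrected the median signals by normexp with an offset of 50, then applied loess within each array. The offset shrinks the differences of dim probes. Control spots were left out, as were outlier spots, which made up 1.55% to 1.84% of an array, and none was saturated. The counts of cell type markers above background and their summed signals kept outlier spots. A probe is the mean of its spots and a gene the mean of its measured probes. Single channels were compared after Aquantile normalization. Probes were named by unversioned accession in a RefSeq table of GRCm38.p6: 27655 of 39429 matched. The array was annotated on another build, per the file headers, so its probes have no coordinates here. Promoters are RefSeq's.

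The rule named all 10 members, up to 4 genes per context list with the largest difference at any time, and the 5 genes nearest to the leading member. Some genes of the context lists are not reported here. Members, 5 context lists and 5 marker lists were chosen with earlier results of these data known. Steps were tested on simulated data. Tables and plots used pandas 2.3.3, matplotlib 3.10.9 and numpy 2.4.6 in Python 3.11.15.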

Additional observations from a re-analysis of the deposited data

How the results depend on the processing

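Of 297 member values recomputed under other settings, 277 kept their sign and 252 moved by less than the spot SD. These counts overstate the agreement. Aquantile normalization leaves the ratio as it is, and leaving out members with a moved reference removed none, so their values could not change. Of the measured members, taking the brightest probe could move only Nr1h3, and dropping the filter on dim probes only Mylip. Keeping outlier spots could move only Apoe and Lpl. The deposited log ratios nearly repeat the processed signals. No member value was past the rule to begin with, so none could reverse. The count of members past the rule of size was 0 at each time. At 6 h it became 1 with plain background subtraction, processed signals or the deposited log ratios (Apoe in each). Under these settings 2.34%, 4.11% and 4.11% of all genes passed. With median centring in place of loess it became 1 at 6 h (Lpl, -1.03), where 1.46% of all genes passed, and 5 at 1 h. There the members' median at 1 h was 1.12, and the median of all genes 0.86, so 29.22% of genes passed too. At 6 h that centring put the median of all genes at -0.15. With a rule of 1.5-fold the counts were 1 at 4 h and 2 at 6 h, where 2.75% and 5.41% of all genes passed. In Cy5 alone the median at 6 h was 0.21. The cause was not tested. Over the alternatives Apoe at 6 h ran from 0.76 to 1.03, Abcg1 at 4 h from 0.57 to 0.75 and Lpl at 6 h from -1.03 to -0.56. No paired analysis was possible because each group has 1 array, and none could be left out. Signal over background limits Abca1 and the dim Mylip probe.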
